A study of Saccharomyces cerevisiae with 18 samples.

Results

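GFA1, GNA1, PCM1 and QRI1 encode the 4 enzymes that turn fructose 6-phosphate into UDP-N-acetylglucosamine in the budding yeast Saccharomyces cerevisiae. They were taken as the probe sets that the platform annotation assigns to these 4 genes. Each gene had 1 probe set, all 4 passed the filter on dim probe sets, and together they make up 4 of the 5659 features tested. In the RefSeq R64 gene table GFA1 is YKL104C on chromosome XI, GNA1 is YFL017C on chromosome VI, PCM1 is YEL058W on chromosome V and QRI1 is YDL103C on chromosome IV, so the 4 genes do not neighbour each other.

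The study hybridised total RNA of strain BY4741, an a-type laboratory strain with auxotrophic deletions, to Affymetrix arrays. It held 6 groups of 3 arrays. They were the rlm1 mutant, the swi3 mutant and the wild type, each grown for 4 hours with 30 µg/ml Congo Red or for 4 hours without it, and the series design describes the arrays of a group as separate biological samples. All groups share the BY4741 background, and the labels name the mutated gene but not the construction of the allele. Congo Red is a dye that binds wall polysaccharides and disturbs their assembly, Rlm1 is a transcription factor downstream of the cell wall integrity MAP kinase, and Swi3 belongs to SWI/SNF, a complex that remodels chromatin.

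UDP-N-acetylglucosamine is the activated sugar from which chitin synthases build chitin, and it also supplies N-glycans and GPI anchors. Gfa1 makes glucosamine 6-phosphate from fructose 6-phosphate and glutamine and is the committed, rate-limiting step. Gna1 acetylates that product, Pcm1 moves the phosphate from the 6 to the 1 position, and Qri1 joins the sugar phosphate to uridine. Yeast cells deposit more chitin when their wall is damaged, and the supply of this precursor is one of the points at which chitin synthesis is regulated.

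Values are log2 probe set levels, so a difference of 1 is a 2-fold change in signal, and levels were compared between arrays but not between probe sets. RLM1 itself averaged 4.82 in rlm1 with Congo Red and 4.78 in untreated rlm1, against 10.44 and 9.26 in the wild type with and without the dye, and SWI3 averaged 3.37 and 3.26 in swi3, against 9.54 and 9.55 in the wild type. The number 1 arrays of rlm1, with and without the dye, stood apart from the other 16 arrays: their median levels were 9.29 and 9.27, and the other rlm1 arrays reached up to 10.02. Array medians ran from 9.58 to 9.70 in swi3 and from 10 to 10.04 in the wild type, and they decide the sign of several comparisons between strains below. The gap between the 3′ and 5′ probe sets of 7 control genes, a measure of RNA integrity, was 1.03 and 1.15 on the rlm1 number 1 arrays with and without dye, 0.826 to 1.26 in untreated swi3 and at most 0.866 on the remaining arrays. Markers of a cells averaged 10.2 to 11.2 in swi3 and 11.6 to 12.6 in the wild type, and markers of alpha cells averaged 5.42 to 5.72 in swi3 and 6.78 to 6.98 in the wild type. Markers of sporulating cells averaged 4.77 to 5.71 in untreated swi3 and 6.50 to 6.57 in the untreated wild type. Of these markers 6 of 10 were called lower, in a comparison where 22.4% of all features were called lower. All 3 lists lay lower in swi3, as did the array medians, and their part in the results was not tested. The sporulation markers averaged 6.80 to 6.92 in the wild type with Congo Red. There 1 of 10 passed the test, in a comparison where 2.05% of all features were called. It was SPO11, a call lost without any 1 of 4 wild-type arrays (limma adjusted p from 0.0902 to 0.0979).

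In the wild type, Congo Red raised the probe sets of the first and the third enzyme and left those of the other two without a detectable change. GFA1 read 13.33, 13.34 and 13.32 on the 3 wild-type arrays with Congo Red, against 12.18, 12.11 and 12.02 on the untreated ones. The groups did not overlap, and each was tight: 13.33 ± 0.01 with the dye and 12.10 ± 0.08 without it (SD, n = 3 each). The difference was 1.23 ± 0.17 (SE), a 2.34-fold rise with a 95% interval from 1.82 to 3.01 (limma, adjusted p = 6.16e-04). PCM1, the mutase, read 13.08, 13.19 and 13.06 with Congo Red, against 12.10, 12.15 and 11.99 without it. These groups did not overlap either, and PCM1 rose 2.04-fold (1.57 to 2.65), a log2 difference of 1.03 ± 0.18 (SE, limma adjusted p = 0.0041). Of all 5659 features 2.05% were called in the wild type, 89 higher and 27 lower, and both called members were among the higher ones, at places 66 and 94 from the top. The genes were picked with this response already known, so the count is a description. The arrays measured RNA of whole cultures, in which a change in the share of cells and a change in RNA per cell cannot be told apart.

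GNA1, the acetyltransferase between the 2 induced steps, read 10.46, 10.68 and 10.61 with Congo Red, against 10.67, 10.73 and 10.66 without it. The groups overlapped, and the difference was −0.10 ± 0.23 with a 95% interval from −0.59 to 0.39. QRI1, the last enzyme, read 11.17, 11.12 and 11.25 with Congo Red, against 11.15, 11.29 and 11.07 without it, again with overlap. Its difference was 0.01 ± 0.23 (−0.47 to 0.49), so the intervals of both genes lie wholly below the 0.65 at which that of PCM1 begins. Adjusted p was 1 for each in the limma fit.

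**Figure D1:**
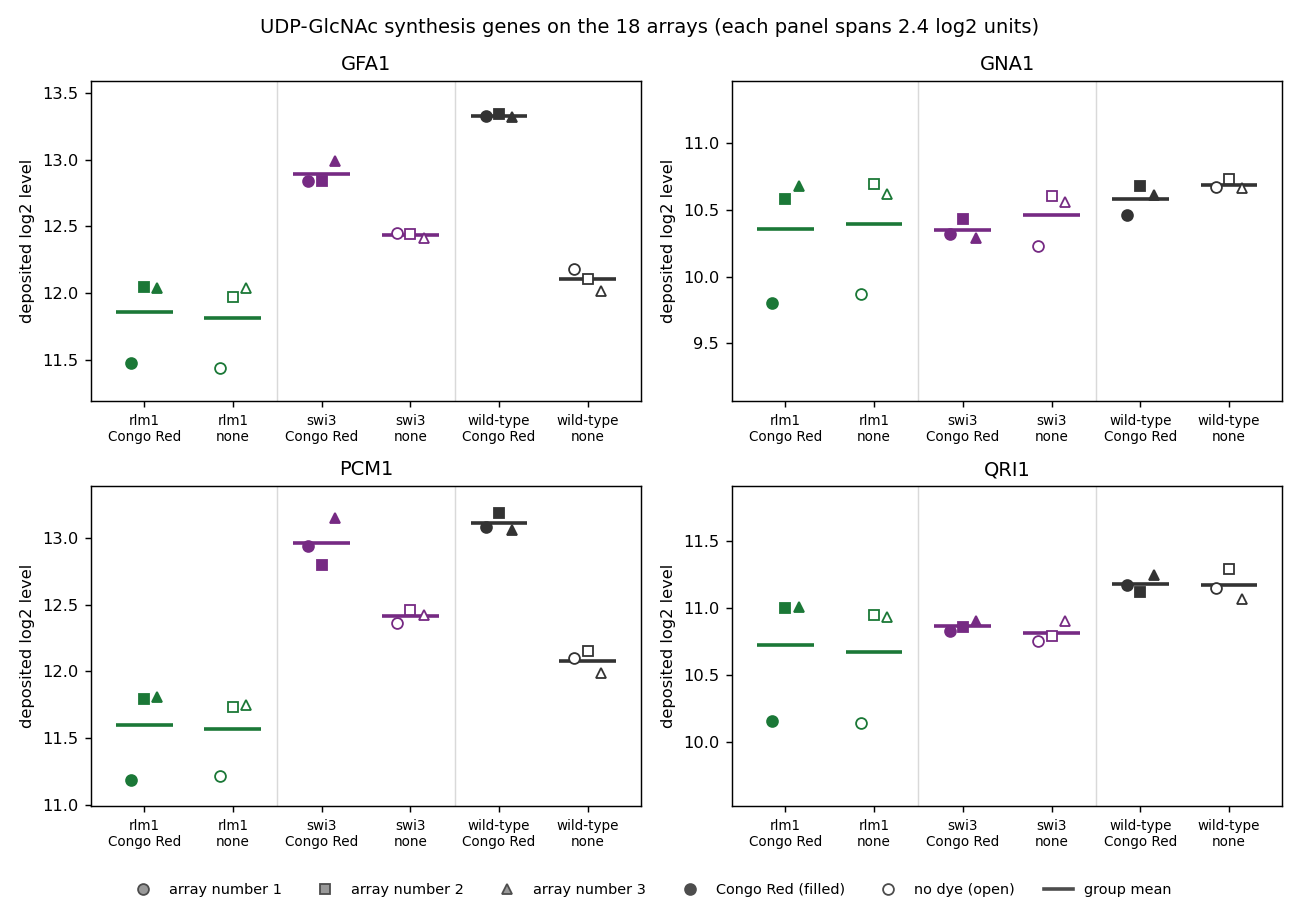
Log2 probe set level of GFA1, GNA1, PCM1 and QRI1 on each array, one panel per gene, by strain and treatment, with points for arrays and bars for group means. GFA1 and PCM1 sit above 13 on all wild-type arrays with Congo Red and at most at 12.18 on the untreated ones, and the rlm1 number 1 arrays lie below the others of that strain in every panel.

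In rlm1 no member passed the test with Congo Red. GFA1 read 11.48, 12.05 and 12.04 with the dye, against 11.44, 11.97 and 12.04 without it, and the number 1 array was the lowest of each group. PCM1 read 11.19, 11.79 and 11.81 with the dye, against 11.22, 11.73 and 11.75 without it. Pairing the arrays of a number removes the shift of number 1: GFA1 then differed by 0.04, 0.08 and 0 and PCM1 by −0.03, 0.06 and 0.06. The fitted differences were 0.04 ± 0.17 for GFA1 (−0.32 to 0.40) and 0.03 ± 0.18 for PCM1 (−0.35 to 0.41). GNA1 gave −0.04 ± 0.23 and QRI1 0.05 ± 0.23. The limma fit called 0 of the 4 members and 0 at an unadjusted p under 0.05, in a comparison where 0.0884% of all features were called and 67 had an unadjusted p under 0.05. GNA1 read 9.80, 10.58 and 10.68 with the dye, against 9.87, 10.69 and 10.62 without it, and QRI1 read 10.15, 11 and 11.01, against 10.14, 10.95 and 10.93. In both genes the spread between numbers was far wider than the step with the dye.

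In swi3 GFA1 and PCM1 lay higher with Congo Red than without it on every array, by less than in the wild type, and whether the differences pass the test depends on the fit. GFA1 read 12.84, 12.84 and 12.99 with Congo Red, against 12.45, 12.44 and 12.41 without it, with no overlap. PCM1 read 12.94, 12.80 and 13.15 with the dye, against 12.36, 12.46 and 12.42 without it, also with no overlap. The differences were 0.46 ± 0.17 for GFA1 (0.09 to 0.82, 1.37-fold) and 0.55 ± 0.18 for PCM1 (0.17 to 0.93, 1.46-fold), with limma adjusted p of 1 and 0.968. Without a block 0 of 4 members were called and 2 had an unadjusted p under 0.05, where 0.159% of all features were called. With arrays of a number paired within the strain, adjusted p was 0.00212 for GFA1 and 0.00258 for PCM1, in a fit that called 7.23% of all features. Both were called in 5 of 8 alternative fits, 4 of them without pairing. The SEs of the fit on group means rest on a spread shared by all 6 groups, which was widest in rlm1. Leaving out both number 1 arrays of rlm1, which are not part of this comparison, was among the fits that called both genes. The shares of all features that the alternative fits called varied widely and are given with the alternatives below.

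All 3 pairs of swi3 arrays moved up in both genes. GFA1 differed by 0.39, 0.40 and 0.58, and PCM1 by 0.58, 0.34 and 0.73. The 3′ to 5′ control gap spread from 0.797 to 0.866 in swi3 with Congo Red and from 0.826 to 1.26 in untreated swi3. In the pair of number 2 it was nearly equal, at 0.797 with the dye and 0.826 without it, and there GFA1 differed by 0.40 and PCM1 by 0.34. In number 1 it was 0.80 with the dye and 1.04 without it, and GFA1 differed by 0.39 and PCM1 by 0.58. In number 3 it was 0.866 and 1.26, and there both genes differed most, by 0.58 and 0.73. The part of RNA integrity in these differences was not tested. GNA1 read 10.32, 10.43 and 10.29 with the dye, against 10.23, 10.60 and 10.56 without it. QRI1 read 10.83, 10.86 and 10.90 with the dye, against 10.75, 10.79 and 10.90 without it. The groups overlapped in GNA1, whose difference was −0.12 ± 0.23, and touched at 10.90 in QRI1, whose difference was 0.05 ± 0.23.

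The responses of the mutants were set directly against that of the wild type. The response of GFA1 was 1.19 ± 0.24 log2 units smaller in rlm1 (95% interval of the difference −1.70 to −0.67, limma adjusted p = 0.0519), and that of PCM1 was lower by a difference of −1.0 ± 0.25 (−1.54 to −0.46, adjusted p = 0.191). No member was called in that fit, 2 of 4 had an unadjusted p under 0.05, and 0.318% of all features were called, all 18 of them lower in rlm1. With the replicate numbers as a block, both were called, at 6.29e-05 for GFA1 and 5.26e-04 for PCM1, as were 10.5% of all features. Leaving out the untreated rlm1 number 1 array alone also brought both under the threshold, at 0.00287 and 0.0192, with differences of −1.38 and −1.17, but it moved the median of all features to −0.24 (0.937% called). Leaving out the Congo Red number 1 array of rlm1 alone moved that median to 0.25, with differences of −0.998 for GFA1 (0.0535) and −0.80 for PCM1 (0.152), and neither was called. Leaving out both number 1 arrays of rlm1 gave −1.19 for GFA1 (adjusted p = 1.06e-05) and −0.97 for PCM1 (0.00102), with 3% of all features called. The differences of GNA1 and QRI1 were 0.06 ± 0.32 and 0.04 ± 0.32.

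For swi3 the response of GFA1 differed from that of the wild type by −0.77 ± 0.24 (−1.28 to −0.26) and that of PCM1 by −0.48 ± 0.25 (−1.02 to 0.06), both with a limma adjusted p of 1. No member was called, 1 of 4 had an unadjusted p under 0.05, and 0.106% of all features were called. With the replicate numbers as a block adjusted p was 0.00115 for GFA1 and 0.0297 for PCM1, and 4.51% of all features were called. The comparison of PCM1 did not pass with array medians subtracted (−0.50, adjusted p = 0.138) or with both rlm1 number 1 arrays left out (0.0581). GNA1 and QRI1 differed by −0.01 ± 0.32 and 0.04 ± 0.32. These 2 differences of responses share the wild-type arrays.

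**Figure D2:**
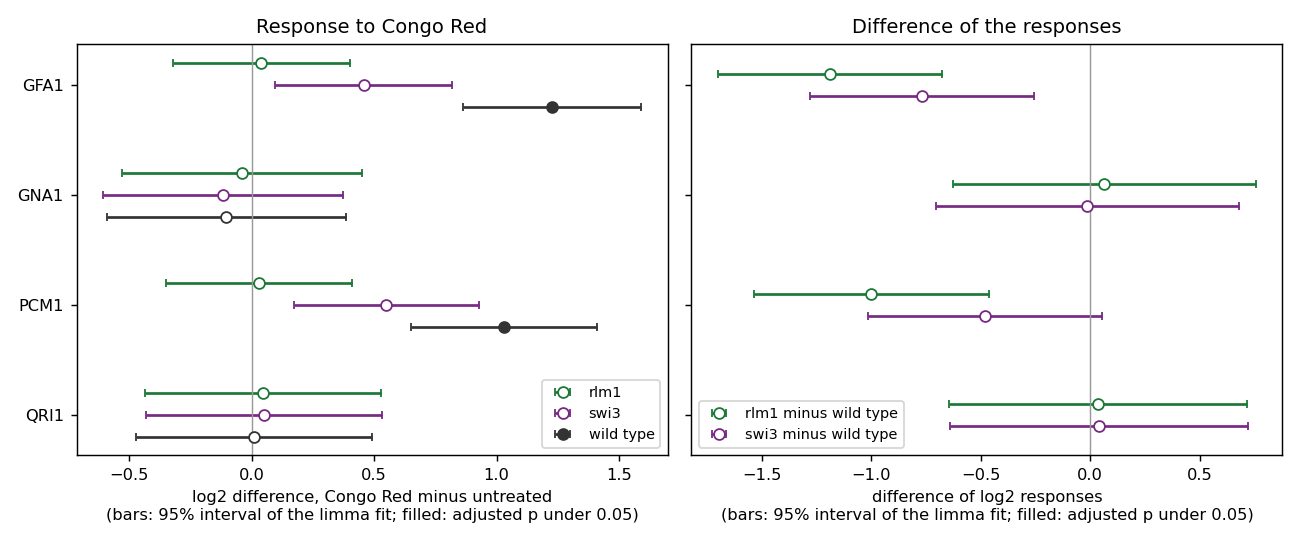
Congo Red minus untreated difference in log2 level of the 4 genes in rlm1, swi3 and the wild type (left) and the mutants' responses minus that of the wild type (right), with points for the fitted difference and bars for the 95% interval. GFA1 and PCM1 lie near 0 in rlm1, at 0.46 and 0.55 in swi3 and at 1.23 and 1.03 in the wild type, while GNA1 and QRI1 lie near 0 in all 3 strains.

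Without the dye, the levels of the 4 genes in the mutants depend on how array medians are treated. In untreated rlm1 all 4 members averaged lower than in the untreated wild type, by −0.29 for GFA1, −0.29 for GNA1, −0.51 for PCM1 and −0.50 for QRI1, but the median of all 5659 features was itself −0.27. No member was called in this limma fit, 2 had an unadjusted p under 0.05, and 0.0707% of features were called. With array medians subtracted the differences were −0.02, −0.03, −0.25 and −0.23, and with both number 1 arrays of rlm1 left out they were −0.10, −0.03, −0.34 and −0.23.

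In untreated swi3, GFA1 and PCM1 lay above the untreated wild type, with no overlap in either gene. GFA1 averaged 12.43 ± 0.02 in untreated swi3 and 12.10 ± 0.08 in the untreated wild type, and PCM1 12.41 ± 0.05 and 12.08 ± 0.08 (SD, n = 3 each). Both differed by 0.33, with limma adjusted p of 0.144 and 0.157, while the median of all features was −0.41. GNA1 and QRI1 differed by −0.22 and −0.36. No member was called, none had an unadjusted p under 0.05, and 26.2% of all features were called, 215 higher and 1265 lower. Relative to the array medians, GFA1 and PCM1 were both higher in untreated swi3 by 0.70 (adjusted p = 1.35e-05 and 4.93e-05, with 29.9% of all features called), while GNA1 and QRI1 turned to 0.14 and 0.01. On that scale GFA1 read 2.87, 2.77 and 2.71 above the median of untreated swi3 arrays and 2.16, 2.08 and 2.02 above that of untreated wild-type arrays. PCM1 read 2.78, 2.79 and 2.72 in untreated swi3 and 2.08, 2.12 and 1.99 in the untreated wild type. Neither gene overlapped between the strains on either scale. With both rlm1 number 1 arrays left out all 4 members passed on the deposited scale, GFA1 and PCM1 as higher and GNA1 and QRI1 as lower (adjusted p between 2.80e-04 and 0.0456), but that fit called 72.2% of all features. RLM1, plotted beside them as the factor missing in rlm1, averaged 0.29 above the array median in untreated swi3 and −0.76 in the untreated wild type, and 0.77 in swi3 and 0.42 in the wild type with Congo Red.

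**Figure D3:**
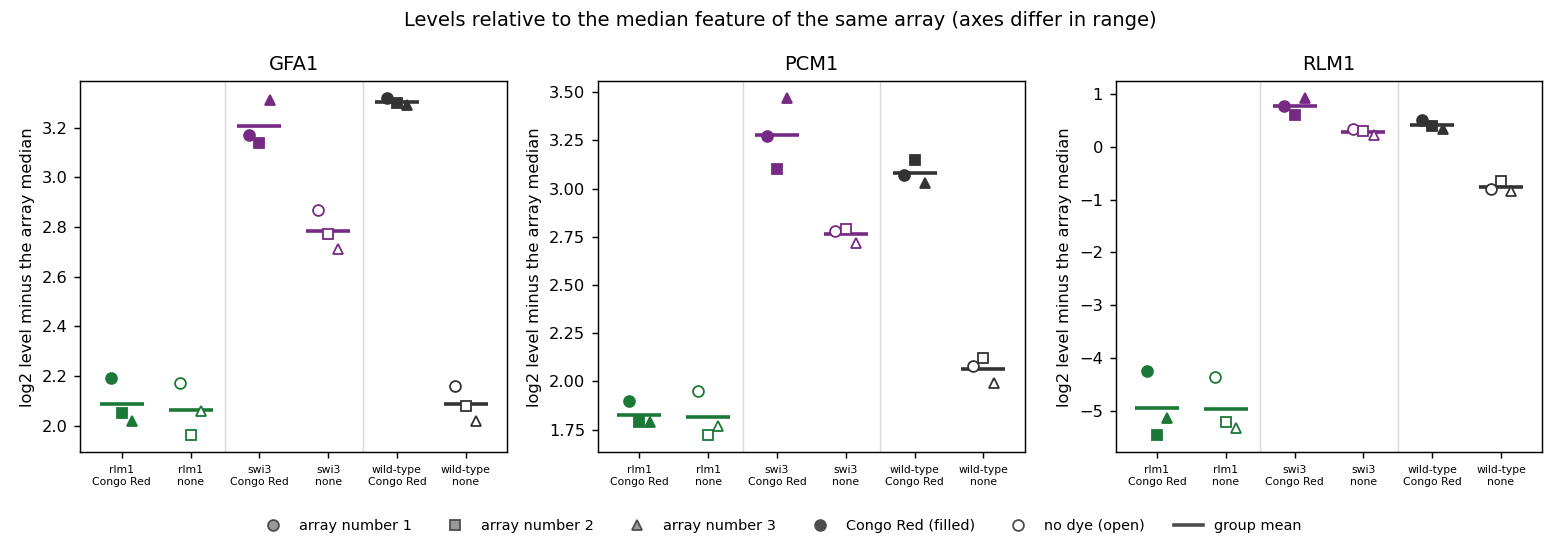
Log2 level of GFA1, PCM1 and RLM1 minus the median of each array, by strain and treatment, with a point per array and a bar at the group mean. Relative to the array median, GFA1 and PCM1 are at 2.71 or above on all swi3 arrays and at 2.19 or below on all rlm1 arrays and all untreated wild-type arrays.

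Under Congo Red, GFA1 and PCM1 were lower in rlm1 than in the wild type. GFA1 averaged 11.86 ± 0.33 in rlm1 and 13.33 ± 0.01 in the wild type, and PCM1 11.60 ± 0.35 in rlm1 and 13.11 ± 0.07 in the wild type (SD, n = 3 each). The differences were −1.47 ± 0.17 for GFA1 (limma adjusted p = 9.73e-05) and −1.51 ± 0.18 for PCM1 (1.00e-04), against a median of −0.26 over all features. Both remained called in every alternative run, with −1.22 and −1.26 after subtracting array medians. In this comparison 3.64% of features were called, 15 higher and 191 lower. GNA1 differed by −0.23 ± 0.23 and QRI1 by −0.46 ± 0.23, and neither was called. After the array medians were subtracted GNA1 turned to 0.03 and QRI1 stood at −0.20.

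Under Congo Red, GFA1 and PCM1 were much closer to the wild type in swi3 than in rlm1. GFA1 averaged 12.89 ± 0.09 in swi3 and 13.33 ± 0.01 in the wild type, with no overlap, a difference of −0.44 ± 0.17 (limma adjusted p = 0.0726). PCM1 averaged 12.96 ± 0.18 in swi3 and 13.11 ± 0.07 in the wild type, with overlap, a difference of −0.15 ± 0.18 (0.544). The 2 remaining genes differed by −0.24 (GNA1) and −0.32 (QRI1), with no overlap between the strains in either. No member was called, 1 had an unadjusted p under 0.05, 22.1% of all features were called, and the median of all features was −0.37. Subtracting array medians changed these differences to −0.10 for GFA1, 0.20 for PCM1, 0.11 for GNA1 and 0.03 for QRI1, none of them called. GFA1 was called as lower when either number 1 array of rlm1 was left out, at 0.0198 to 0.0213. Those arrays are not part of this comparison, so its difference stayed at −0.44 and only the spread shared by all groups changed. With the replicate number as a block shared by all strains, GFA1 was also called (0.0437), as were 35.2% of all features.

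From high to low, the group means of GFA1 ran from the wild type with Congo Red (13.33) over swi3 with Congo Red (12.89), untreated swi3 (12.43), the untreated wild type (12.10) and rlm1 with Congo Red (11.86) to untreated rlm1 (11.82). Neighbours in that order did not overlap until the untreated wild type, which overlapped with rlm1. PCM1 had the same order of groups, with 13.11, 12.96, 12.41, 12.08, 11.60 and 11.57. Here the wild type and swi3 with Congo Red overlapped while the untreated wild type and rlm1 did not. Both orders hold on the deposited scale only. Relative to array medians PCM1 was highest in swi3 with Congo Red, at 3.28 against 3.08 in the wild type with the dye. GFA1 averaged 2.09 on that scale both in rlm1 with Congo Red and in the untreated wild type. GNA1 stayed between 10.35 and 10.69 over the 6 group means and QRI1 between 10.67 and 11.18. Every group of GNA1 overlapped with its neighbour in order. In QRI1 the swi3 groups, from 10.75 to 10.90, lay below all wild-type arrays, from 11.07 to 11.29, and inside the spread of rlm1. Relative to array medians this did not hold. There QRI1 averaged 1.18 and 1.16 in swi3 with and without the dye, 1.15 in both wild-type groups and 0.95 and 0.92 in rlm1.

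The profiles of all features over the 18 arrays were compared after subtracting each array's median and each gene's own mean, with the root mean square difference in log2 units as the measure of likeness. PCM1 was the nearest of all features to GFA1, and GFA1 the nearest to PCM1, at 0.141 against an own spread of 0.538 for GFA1 and 0.601 for PCM1. The points share arrays and RNA, so this is a description. Next to GFA1 came EXG2, which encodes an exo-glucanase, at 0.150 and DFG5, which encodes a protein with a GPI anchor, at 0.161. Next to PCM1 came YCL012C at 0.164 and FLC2 at 0.196. Without the rlm1 number 1 arrays GFA1 kept the same 3 genes, and CRH1 took the place of FLC2 next to PCM1 (0.165 over 16 arrays).

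The 2 other enzymes had flat profiles, with own spreads of 0.107 for GNA1 and 0.120 for QRI1. They differed from each other by 0.138, which put QRI1 at place 229 for GNA1 and GNA1 at place 236 for QRI1. From GFA1 they stood at 0.553 and 0.474. The nearest to GNA1 were YTA12, MRP51 and UNG1 (0.079 to 0.083), and the nearest to QRI1 were ERP5, AVT7 and PEX30 (0.074 to 0.081). Without the rlm1 number 1 arrays the nearest genes became TAF4, MLP2 and CCT5 for GNA1 and NOT5, SEC3 and PEX30 for QRI1.

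Of the genes near GFA1 and PCM1 in profile, DFG5 differed by 0.22 in rlm1, 0.54 in swi3 and 1.15 in the wild type, where its limma adjusted p was 0.0014. FLC2 differed by 0.17 in rlm1, 0.63 in swi3 and 1.37 in the wild type (5.82e-05). YCL012C differed by −0.01 in rlm1, 0.48 in swi3 and 1.00 in the wild type (0.0076), and EXG2 by 0.18, 0.48 and 0.91 (0.0533 in the wild type, not called). They were chosen for likeness on these arrays, so the values describe the profile and give it no support. YCL012C was not called without the wild-type Congo Red number 3 array (0.88, 0.0576).

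**Figure D4:**
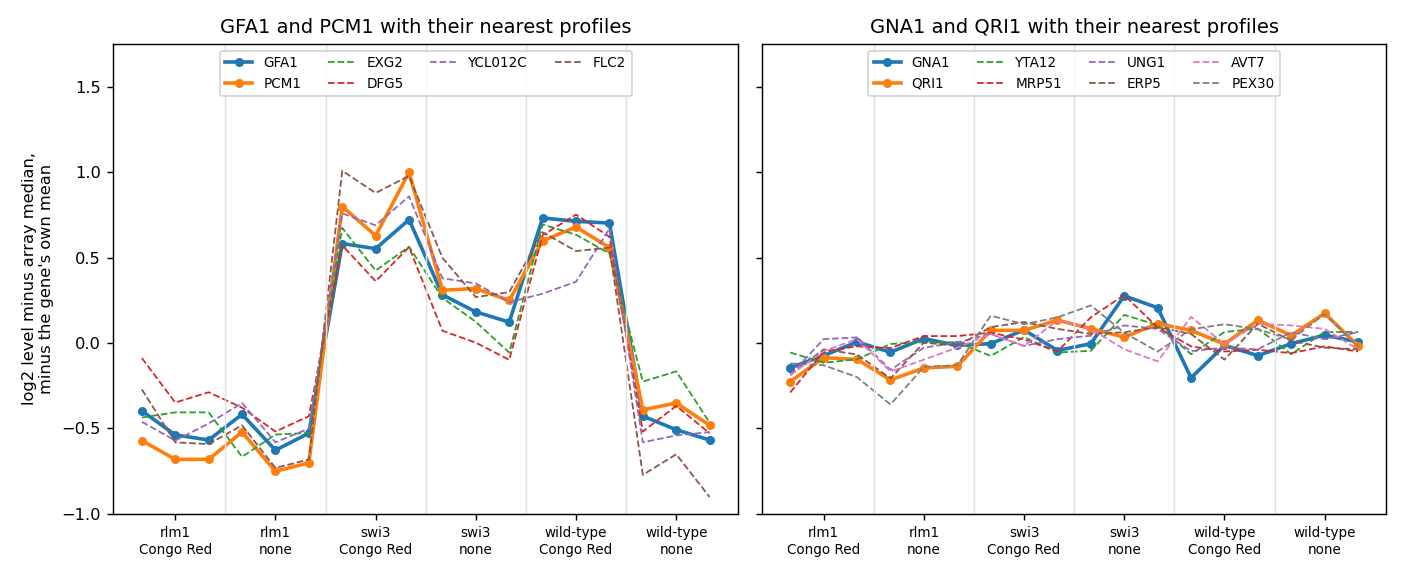
Log2 level minus array median minus the gene's own mean over the 18 arrays, for GFA1 and PCM1 with their nearest genes on the left and for GNA1 and QRI1 with theirs on the right. The left profiles lie highest in swi3 and the wild type with Congo Red and lowest in rlm1 and the untreated wild type, and the right profiles stay close to 0.

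Other genes of chitin synthesis and of sugar nucleotide use were examined as 5 lists, which were chosen with earlier results known. Of 12 measured genes for chitin synthases and their trafficking, 3 rose in the wild type and none fell, where 2.05% of all features were called. The median was 0.285 over the list and −0.01 over all features. CHS1, the synthase that repairs walls after cell separation, rose by 1.12 ± 0.22 (limma adjusted p = 0.0114). CHS3, the synthase of most wall chitin, rose by 0.84 ± 0.15 (0.0051). CHS7, which Chs3 needs to leave the endoplasmic reticulum, rose by 0.70 ± 0.17 (0.039). With the replicate numbers as a block 7 of the 12 were called higher and 2 lower, in a fit that called 32.8% of all features (953 higher, 903 lower). CHS1 lost its call without any 1 of the untreated wild-type arrays or the wild-type Congo Red number 1 array (0.0517 to 0.0654), and CHS7 without any 1 of 13 arrays, among them all 6 of the wild type (0.0506 to 0.246).

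The same list had 0 of 12 called in rlm1, with 0 at an unadjusted p under 0.05 and a median of −0.002 (limma). In swi3 0 of 12 were called, with 5 at an unadjusted p under 0.05 and a median of 0.148 (limma). Of all features only 0.0884% were called in rlm1 and 0.159% in swi3, so a count of 0 says little about a list. Under the block 5 rose and 1 fell in swi3, where 7.23% of all features were called (335 higher, 74 lower). Of 7 genes that break down, deacetylate or cross-link chitin, 1 rose in the wild type: CRH1, a transglycosylase that joins chitin to glucan, by 1.31 ± 0.13 (limma adjusted p = 2.08e-05). The median of that list was −0.01, and 2.05% of all features were called in the wild type. None of its 7 genes was called in rlm1 or in swi3, with 1 at an unadjusted p under 0.05 in each. Under the block 2 of the 7 rose in swi3 (7.23% of all features called), and 1 rose and 1 fell in the wild type (32.8% called). The CRH1 response differed between rlm1 and the wild type by −0.94 ± 0.19 (0.0448), a call lost without any 1 of 17 arrays (0.0538 to 0.170) and kept without the untreated rlm1 number 1 array.

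The list of other users of UDP-N-acetylglucosamine, which serve N-glycan and GPI anchor synthesis, had 0 of 10 called in any strain (limma). At an unadjusted p under 0.05 there were 0 in rlm1, 1 in swi3 and 1 in the wild type. Of all features 0.0884% were called in rlm1, 0.159% in swi3 and 2.05% in the wild type, which holds for the counts of 0 below too. Its medians were 0.005 in rlm1, 0.14 in swi3 and 0.047 in the wild type. Under the block 2 rose in swi3, where 7.23% of all features were called. In the wild type 1 rose and 1 fell under the block, where 32.8% of all features were called. Synthesis of other sugar nucleotides had 0 of 7 called in any strain, and 0 at an unadjusted p under 0.05, with medians of 0.040 in rlm1, 0.027 in swi3 and 0.073 in the wild type. Under the block 2 of these 7 rose in the wild type. Genes that supply hexose phosphate and donors had 0 of 10 called in any strain and 0 at an unadjusted p under 0.05, with medians of −0.03 in rlm1, 0.007 in swi3 and 0.058 in the wild type. Under the block 3 of these 10 rose and 1 fell in the wild type, a share near the 32.8% of all features. The 4 genes of UDP-N-acetylglucosamine synthesis had medians of 0.035 in rlm1, 0.253 in swi3 and 0.52 in the wild type. The wild-type median describes none of them, as it lies between GNA1 (−0.10) and QRI1 (0.01) and the raised PCM1 (1.03) and GFA1 (1.23).

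**Figure D5:**
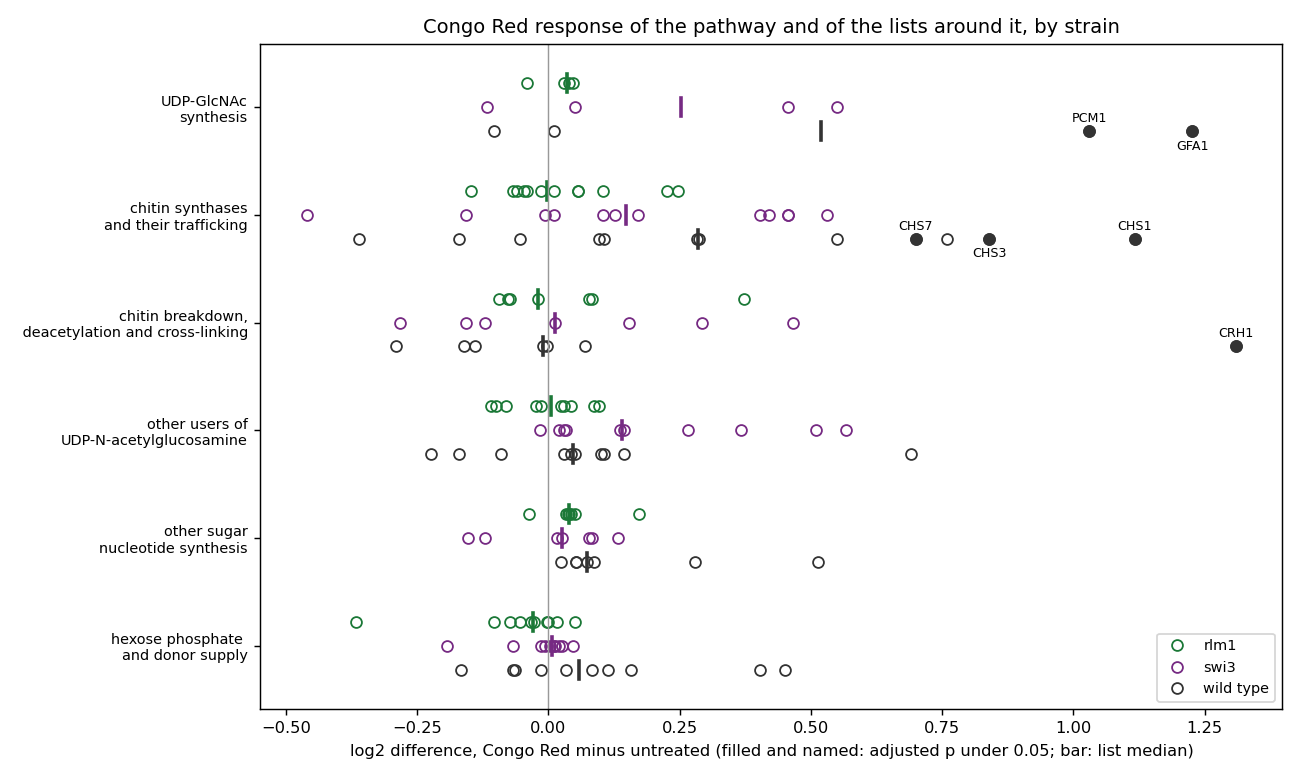
Log2 difference, Congo Red minus untreated, of every measured gene in 6 pathway lists in rlm1, swi3 and the wild type, with a point per gene, filled where it passed the test, and a bar at the list median. The 6 filled points, GFA1, PCM1, CHS1, CHS3, CHS7 and CRH1, all belong to the wild type.

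Between strains under Congo Red, 4 of the 12 chitin synthesis genes were lower in rlm1 than in the wild type and none was higher, where 3.64% of all features were called. CHS1 differed by −1.07 and CHS3 by −1.06, and CHS6, which helps carry Chs3 to the surface, by −1.0. In swi3 5 of the 12 were lower and none was higher than in the wild type under the dye, among them CHS6 at −0.97, where 22.1% of all features were called (183 higher, 1068 lower). CRH1 was lower in rlm1 by −1.13. These values stand against a median of all features of −0.26 for rlm1 and −0.37 for swi3. With array medians subtracted the differences in rlm1 were −0.81 for CHS1, −0.80 for CHS3, −0.74 for CHS6 and −0.87 for CRH1, all still called by limma (adjusted p from 1.04e-05 to 0.00242) in a fit that called 16.5% of all features. The CHS1 call was lost with only the strains compared in the fit (0.0695) and without the wild-type Congo Red number 1 array (0.0619).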

How the data were processed

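The deposited table holds log2 levels per probe set for 18 arrays in 6 groups of 3, made by the authors with GCRMA per the submitters' processing notes. The log2 scale was read from their range, and the arrays normalized together and the software version are not given in the sources used here. Of 5814 probe sets, 98 controls were left out. Gene names came from the platform annotation (5498 probe sets with 1 symbol, 218 with none, 0 with several), 12 of them updated through the RefSeq R64 table. Of several probe sets of a gene the brightest was kept (49 dropped), and 8 features below log2 4 on all but at most 2 arrays were removed.

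The remaining 5659 features, 5442 of them named, were fitted together on group means in R 4.3.3 with lmFit and eBayes of limma 3.58.1, with Benjamini-Hochberg adjustment over all features and calls at an adjusted p under 0.05. The fit was tested on simulated data. No array repeated another: at least 95.3% of probe sets differed between any 2 arrays. Arrays of 1 strain with the same replicate number deviated together (r from 0.419 to 0.909 in 9 pairs). The fit on group means left this pairing out. For the dye responses and their differences, the replicate block took these arrays as pairs within a strain. For the comparisons between strains, the block was instead an effect of the replicate number shared by all 3 strains. Between strains r ran from −0.195 to 0.670 and passed 0.1 in 14 of 18 pairs. It did so in all 3 pairs of swi3 and the wild type under Congo Red (0.333 to 0.670), so the blocked value stands beside that comparison, but not in the other comparisons with the wild type. The number of arrays limits the precision, and so does the spread within rlm1. The fit used a single estimate of the spread per feature, shared by all 6 groups. The median SD within a group was 0.412 in untreated rlm1 and 0.422 in rlm1 with Congo Red. In the other groups it ran from 0.0954 to 0.150. The SEs and adjusted p of comparisons without rlm1 therefore carry its spread too. The 4 genes, the gene lists and the marker lists were chosen with earlier results of these data known. The genes named are the 4 enzymes, RLM1 and SWI3, up to 3 called genes per list and dye comparison, and the 3 nearest profiles of each enzyme.

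Alternatives were quantile normalization, subtraction of array medians, array weights, a trended and robust prior, no filter, only the strains compared, both number 1 arrays of rlm1 left out, the replicate block, and each array left out in turn. Promoter sequences were not used here.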

Additional observations from a re-analysis of the deposited data

How the results depend on the processing

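The 2 calls in the wild-type dye response and the 0 calls in rlm1 were the same under all 8 alternatives and all 18 fits without 1 array. For rlm1 against the wild type under Congo Red the 2 calls stood in all of them, and array weights added QRI1 (−0.16, adjusted p = 0.0434). Array weights called 1.4% to 76.2% of all features over the 9 comparisons, and the fit without both rlm1 number 1 arrays 0.124% to 72.2%. Quantile normalization called 0.389% to 33.3% and subtraction of array medians 0.106% to 31.9%. The trended and robust prior called 0.0707% to 24.9%, only the strains compared 0% to 68% and the replicate block 0.0884% to 41.4%. The member counts have to be read against these shares. They are ranges over the 9 comparisons, so without the share of the same comparison a count cannot be set against its background. In the other comparisons, which had 0 members called, the counts changed as follows. For the swi3 dye response 2 were called after quantile normalization, subtraction of array medians, array weights, without both rlm1 number 1 arrays and with the replicate block. The block called 7.23% of all features there. For the response of rlm1 minus that of the wild type 2 were called under those 5 settings and 1 with the trended and robust prior, and 0 to 2 without 1 array. There the block called 10.5% of all features and the fit without both rlm1 number 1 arrays 3%. For the response of swi3 minus that of the wild type 2 were called with quantile normalization, array weights and the replicate block, and 1 with array medians subtracted, with only the strains compared and without both rlm1 number 1 arrays. The share of all features under the block was 4.51%. For untreated rlm1, 2 were called with array weights. For untreated swi3, 2 were called after quantile normalization or median subtraction, 3 with array weights or only the strains compared, and 4 without both rlm1 number 1 arrays. Median subtraction called 29.9% of all features there and the fit without both rlm1 number 1 arrays 72.2%. For swi3 under Congo Red, 1 was called with quantile normalization, the trended prior or the replicate block, 2 with only the strains compared, 3 with array weights or without both rlm1 number 1 arrays, and 0 to 1 without 1 array. Of all features the block called 35.2% in this comparison. The replicate block changed no other call of the 4 genes. Directions changed in the following cases. QRI1 in the wild-type dye response became −0.013 with quantile normalization and −0.061 with array weights. In untreated swi3, GNA1 became 0.064 with quantile normalization and 0.14 with medians subtracted, and QRI1 0.01 with medians subtracted. For rlm1 under Congo Red GNA1 became 0.027 with medians subtracted, 0.026 with array weights and 0.047 without both rlm1 number 1 arrays. For swi3 under Congo Red GNA1 became 0.047 with quantile normalization, and with medians subtracted GNA1 became 0.11, PCM1 0.20 and QRI1 0.027. Without 1 array, differences whose sign changed ranged from −0.04 to 0.07 for QRI1 in the wild type, and in rlm1 from −0.15 to 0.23 for GFA1, −0.30 to 0.24 for GNA1, −0.14 to 0.23 for PCM1 and −0.22 to 0.33 for QRI1. For the response of rlm1 minus that of the wild type they ranged from −0.20 to 0.34 for GNA1 and −0.23 to 0.32 for QRI1, for swi3 minus the wild type from −0.13 to 0.055 for GNA1 and −0.02 to 0.09 for QRI1, and for rlm1 under Congo Red from −0.39 to 0.047 for GNA1. The causes were not tested.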

Other observations

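In the RefSeq R64 gene order the measured gene after GFA1 is APE1, which encodes the vacuolar aminopeptidase I, and it moved opposite to GFA1 in the wild type. It was chosen after its values were seen. APE1 read 9.28, 8.86 and 10.04 in the wild type with Congo Red, against 11.26, 11.19 and 11.37 without it, a difference of −1.88 ± 0.38 (SE, limma adjusted p = 0.0128, or 1.18e-04 with the replicate block). The groups did not overlap. The call was lost without any 1 of the untreated wild-type arrays or without the wild-type Congo Red number 1 or number 2 array (0.0507 to 0.094). APE1 differed by 0.27 in rlm1 and −0.27 in swi3. The measured genes on the other side of GFA1, SEG2 and AAT1, differed by −0.03 and −0.38 in the wild type. Of these AAT1 was called only with the block (limma adjusted p = 0.00426). Next to PCM1, SDD1 and SOM1 differed by 0.74 and 0.64 in the wild type, neither of them called without the block (0.0309 and 7.56e-04 with it). The block called 32.8% of all features in the wild type. SDD1 overlapped between the wild-type groups, with up to 6.85 without the dye and from 6.80 with it. HAT2, also beside PCM1, differed by −0.09. No neighbour of GNA1 or QRI1 moved by more than 0.18 in the wild type.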
